A study of Mus musculus with 6 samples.

Results

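C-type lectin and killer receptor genes were followed through 6 replication timing profiles of mouse myeloid cell lines. The group was taken from the RefSeq annotation as the autosomal protein-coding genes named Klra, Klrb, Klrc, Klrd, Klre, Klrg, Klri, Klrk, or Clec with a number. The rule found 61 genes of 20665, and 59 of them had a window of data within 50 kb of the gene midpoint. Of these, 47 lay in a complex on chromosome 6 beyond 120 Mb, 4 lay elsewhere on chromosome 6 and 8 on other chromosomes. Klra16 and Klra23 had no window within 50 kb and carried no value.

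The profiles came from whole-genome sequencing of proliferating cultures of HoxB8-immortalised cells selected in GM-CSF, 3 samples of genotype Recql4 -/- Klhdc3 -/- and 3 WT samples. Recql4 encodes a DNA helicase with a role in the start of replication, and Klhdc3 a substrate receptor of a ubiquitin ligase. During S phase early replicating DNA is present in more copies than late replicating DNA, so sequencing depth along the genome follows the order of replication. Each profile gave a raw DNA copy level per window of about 10 kb and a smoothed timing score centred on 0 and scaled to unit SD over the autosomes, where a higher score stood for earlier replication. The value columns carried no sample names, so no profile could be given a genotype. They are called A to F here, values are given per profile or as their median and range, and no genotype test was made. Whether samples of a genotype were separate lines, the strain of the mice and the depth reached are not given in the sources used here. DNA copy levels do not measure expression, so the labelled cell type was not checked against markers.

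C-type lectin-like receptors sit on natural killer cells and myeloid cells and recognise sugars, damaged cells or molecules related to MHC class I. In the mouse, many of their genes form the natural killer gene complex, a run of tandem duplicates, in which the Klra (Ly49) genes differ in number between strains. Killer receptors of this kind inhibit or activate natural killer cells, and receptors such as Clec7a (Dectin-1) and Clec4e (Mincle) alert macrophages and neutrophils to fungi and mycobacteria. In many cell types genes tend to replicate earlier where they are active.

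To show what the tandem copies look like at the sequence level, the 150 bases before a transcript start listed by RefSeq are given for the earliest and the latest member of the complex by median score (Clec2e and Klra1), for the most similar partner of Clec2e (Clec2h), for the most similar pair of Klra genes (Klra4 and Klra8), and for Clec16a, which lies on another chromosome. Sequences are from RefSeq, build GRCm38.p6, written 5′ to 3′ on the strand of the gene, and capitals mark each CG. For Klra4 and Clec16a the listed start lies a short way inside the outermost end of the annotated gene.
Clec2e, minus strand, chr6:129100904-129101053: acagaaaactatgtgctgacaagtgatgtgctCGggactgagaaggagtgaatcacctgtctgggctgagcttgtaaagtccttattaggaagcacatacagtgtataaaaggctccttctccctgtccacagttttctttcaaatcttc
Clec2h, plus strand, chr6:128662235-128662384: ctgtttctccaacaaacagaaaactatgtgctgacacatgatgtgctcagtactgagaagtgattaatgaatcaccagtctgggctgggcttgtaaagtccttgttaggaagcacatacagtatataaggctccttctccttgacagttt
Klra4, minus strand, chr6:130067272-130067421: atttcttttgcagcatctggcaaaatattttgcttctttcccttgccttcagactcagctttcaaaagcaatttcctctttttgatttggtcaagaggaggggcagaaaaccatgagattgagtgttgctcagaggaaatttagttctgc
Klra8, minus strand, chr6:130129899-130130048: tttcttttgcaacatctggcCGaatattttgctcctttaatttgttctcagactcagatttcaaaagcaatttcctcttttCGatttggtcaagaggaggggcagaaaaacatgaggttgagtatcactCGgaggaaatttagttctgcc
Klra1, minus strand, chr6:130386875-130387024: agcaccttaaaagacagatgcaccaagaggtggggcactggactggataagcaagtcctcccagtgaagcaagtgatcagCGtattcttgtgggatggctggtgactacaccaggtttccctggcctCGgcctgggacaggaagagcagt
Clec16a, plus strand, chr16:10545189-10545338: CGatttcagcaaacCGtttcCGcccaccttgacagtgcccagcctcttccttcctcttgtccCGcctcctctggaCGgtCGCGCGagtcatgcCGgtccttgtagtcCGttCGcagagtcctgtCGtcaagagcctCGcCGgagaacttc

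As a whole the group was timed much like other genes. Of the 58 members valued in all profiles, 43 (74.1%) scored above 0 in every profile, beside 76.4% of the 18063 autosomal protein-coding genes. Another 8 members (13.8%) scored below 0 in every profile, beside 15.3% of all genes, and the other 7 had mixed signs. The median of the members' scores was 0.95, against 0.82 over all genes.

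The chromosome 6 complex and the other sites overlapped broadly. In profiles A to F the median score of the 47 members in the complex was 0.99, 0.96, 0.68, 0.81, 0.82 and 0.81, against 1.10, 1.06, 1.03, 1.12, 1.13 and 0.90 over the other sites (11 genes in D and E, 12 in the rest). The complex was thus lower in each profile, by between 0.09 and 0.35 units (median difference -0.21). The middle 50% of members overlapped in each profile. It ran from 0.44 to 1.48 in the complex in profile A, against 0.74 to 1.45 for the other sites, and from -0.07 to 1.26 in the complex in profile D, against 0.82 to 1.31 for the other sites. On the raw level the difference changed sign among profiles, from -0.12 to 0.01. The size of the difference in score also depended on how members were counted. It was -0.48 with 1 value per 100-kb bin, -0.48 against the other sites on chromosome 6 alone, and -0.032 when only the 37 members joined to Klrb1c by gaps of at most 1 Mb were counted.

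**Figure D1:**
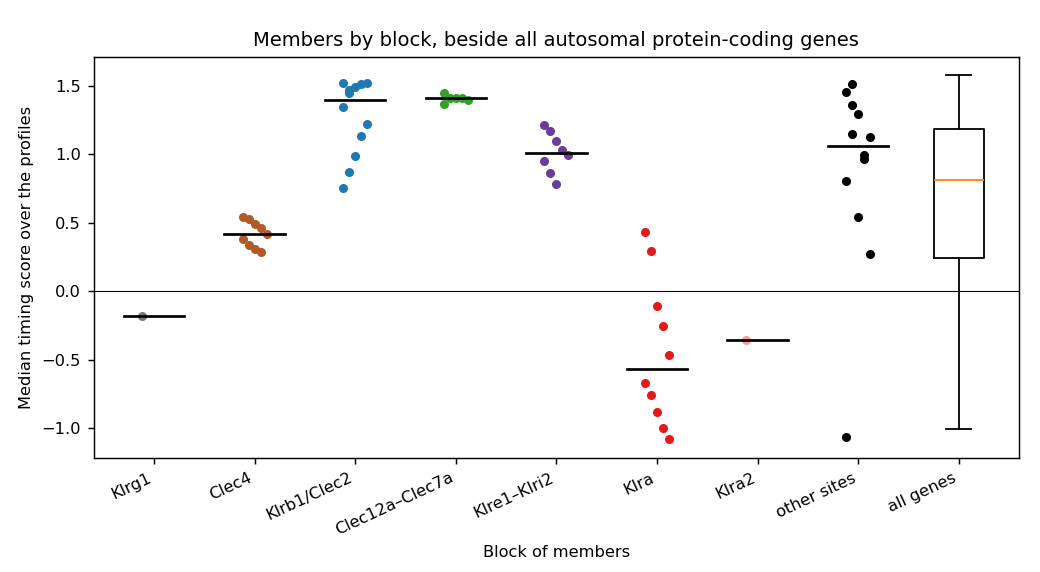
Median timing score over the profiles (vertical axis, score units) of each placed member, by block of the chromosome 6 complex and at other sites; black bars are block medians, and the box for all 18063 genes spans the middle 50% with its median and whiskers from the 5th to the 95th percentile. The Klrb1/Clec2 and Clec12a to Clec7a blocks sit near 1.4, and the Klra genes spread from 0.43 to -1.08.

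What set the complex apart from a single domain was its inner order. The Clec4 genes lay at intermediate scores, and the Klrb1 and Clec2 genes formed an early crest. Just distal to its highest window, the genes from Clec12a to Clec7a had a block median close to that of the Klrb1 and Clec2 genes. The killer receptor genes then stepped down from Klre1 through the Klra array into late replicating DNA. Block medians over the profiles were -0.18 for Klrg1 alone, 0.42 for 9 Clec4 genes, 1.40 for 12 Klrb1 and Clec2 genes, 1.41 for 6 genes from Clec12a to Clec7a, 1.01 for 8 genes from Klre1 to Klri2, -0.57 for 10 Klra genes and -0.35 for Klra2 alone. Neighbouring members share the smoothing of the score and are not independent of each other.

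**Figure D2:**
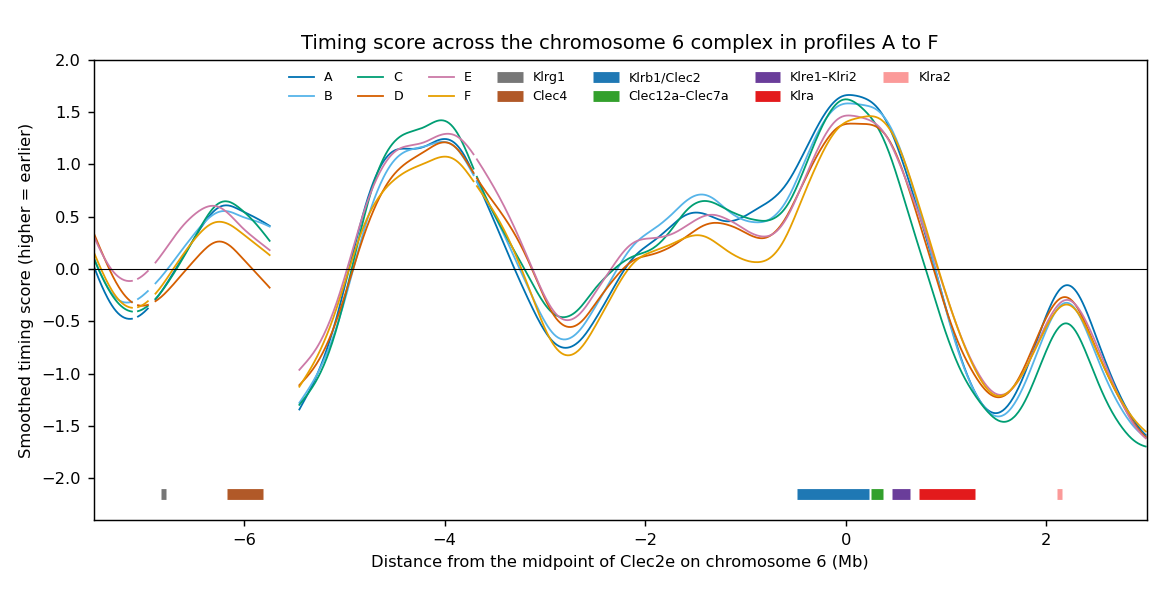
Smoothed timing score (vertical axis) against distance in Mb from the midpoint of Clec2e on chromosome 6, 1 line per profile, with bars at the foot for the blocks of members and breaks where no window carried a value. The profiles crest at 1.39 to 1.66 over the Klrb1/Clec2 block and reach -1.46 to -1.20 just beyond the Klra array.

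The crest lay along the stretch of the Clec2 genes in each profile. In A, B, D and E the highest window lay between Clec2e and Clec2d and overlapped no member. Raw levels averaged over the 100-kb bin of these windows, which is that of Clec2d, and rescaled had a median of 0.86. The bin of Clec2e had 2.25. The highest window scored 1.66, 1.58, 1.62, 1.39, 1.47 and 1.46 in profiles A to F. It began at 129096581 (mm10) in C, at 129116654 in B and E, at 129127028 in A, at 129147988 in D and at 129329467, at the distal end of Clec2m, in F. From there the smoothed score declined without a single upward step between windows to a trough of -1.38, -1.41, -1.46, -1.22, -1.20 and -1.21. The drop of 2.83 units (2.61 to 3.08) was spread over 1480 kb (1294 to 1573 kb), or 1.98 units per Mb (1.76 to 2.08). Smoothing itself evens out steps between windows, so their absence does not show an unbroken fall. Medians of raw levels averaged over 100-kb bins and rescaled rose in places along the decline. They went from 0.35 at Klra17 to 0.50 at Klra5, and from -1.06 at Klra10 to -0.67 at Klra3. The score crossed 0 between 129893390 in profile C and 130019461 in profile F, a span of 126071 bp that holds Klra5 and the proximal end of Klra6. Within this decline, the steepest change of the median score between bins 500 kb apart was -1.56, between the bins that start at 129700001 and end at 130300000. Of 21277 such autosomal pairs, 135 (0.634%) changed at least as much in either direction, a description only, since the pair was picked as the steepest of the decline.

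**Figure D3:**
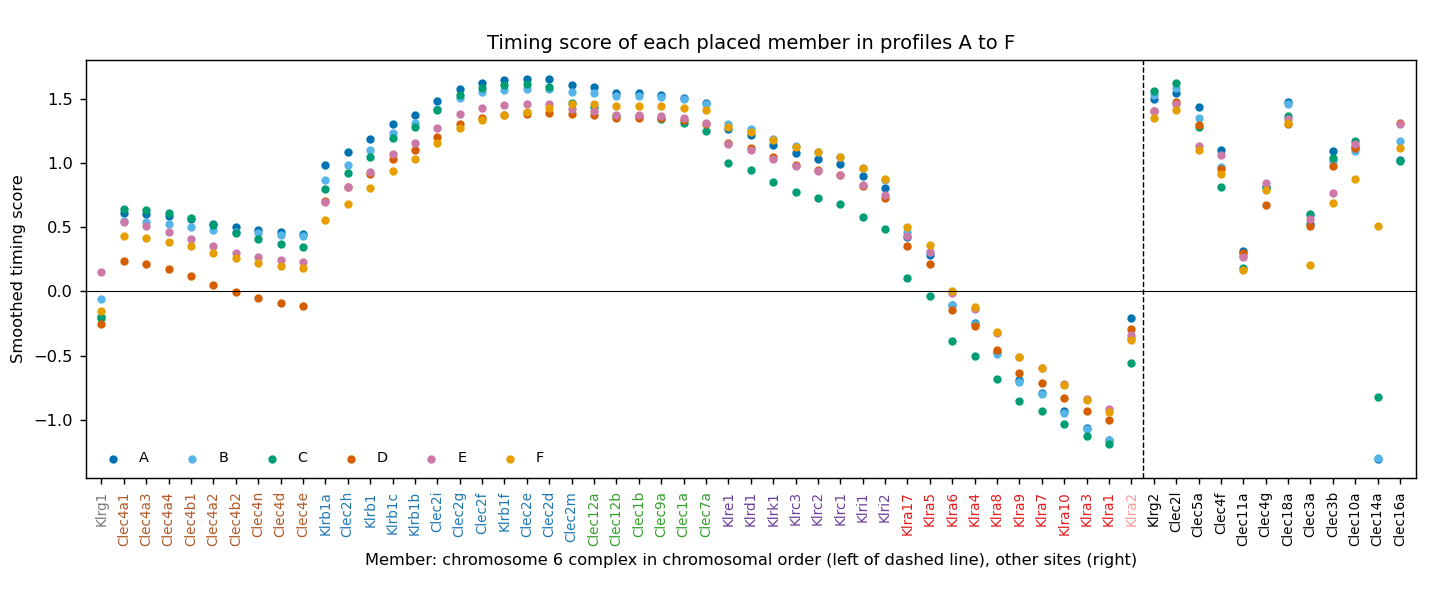
Timing score (vertical axis) of each of the 59 placed members in profiles A to F (coloured points); members of the chromosome 6 complex stand in chromosomal order to the left of the dashed line, coloured by block, and other sites to the right. Scores climb from Klrb1a to the distal Clec2 genes and decline to Klra1 in every profile, and Clec14a alone spreads over 1.82 units, with values in 4 profiles.

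Klrb1 and Clec2 genes encode receptors and their ligands side by side: Clec2d (Clr-b) is the ligand of the inhibitory receptor of Klrb1b, and Klrb1c encodes the NK1.1 antigen of natural killer cells. Members of this block numbered 12, and they scored above 0 in every profile. Klrb1a, at the proximal edge (128609227 to 128622934), was the latest of them with 0.99, 0.87, 0.80, 0.71, 0.70 and 0.56 in profiles A to F. Klrb1c scored 1.31, 1.24, 1.20, 1.03, 1.07 and 0.94. Profile A was the highest and F the lowest for both genes. Clec2e was the earliest, at 1.66, 1.58, 1.62, 1.39, 1.47 and 1.40, with a higher median than 93.2% of all genes. Clec2d stood beside it in smoothed score at 1.66, 1.58, 1.60, 1.39, 1.46 and 1.43. On raw levels averaged over 100-kb bins and rescaled, these genes were apart, with medians of 2.25 for Clec2e and 0.86 for Clec2d.

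The next block holds receptors of myeloid cells and platelets. Clec12a, an inhibitory receptor of granulocytes and monocytes, scored 1.59, 1.55, 1.44, 1.38, 1.41 and 1.46. Clec1b, the platelet receptor for podoplanin, and Clec12b took the same window, at 1.36 to 1.55. Clec9a, which marks a dendritic cell lineage and binds actin of dead cells, had a median of 1.41 (1.35 to 1.54). Clec7a, the receptor for fungal beta-glucan, was the latest of the block with 1.47, 1.47, 1.25, 1.31, 1.32 and 1.41. The 6 medians lay between 1.37 and 1.45, the tightest block with more than 1 gene.

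Klrd1 (CD94) pairs with the NKG2 receptors of the Klrc genes, and Klrk1 encodes NKG2D, which detects stress-induced ligands. Klre1 led this block at 1.27, 1.31, 1.00, 1.16, 1.15 and 1.28. Klrd1 followed at a median of 1.17 (0.95 to 1.26) and Klrk1 scored 1.14, 1.19, 0.85, 1.05, 1.04 and 1.18. Klri2 closed it at 0.81, 0.87, 0.49, 0.73, 0.75 and 0.88. Profile C was the lowest at each of these 4 genes.

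The Klra genes encode the Ly49 receptors, which read MHC class I molecules and, in the case of Klra8 (Ly49H), a protein of mouse cytomegalovirus. Klra17 (Ly49q) was the earliest at 0.43, 0.47, 0.10, 0.35, 0.43 and 0.51. It was the single gene of the 10 above 0 in every profile, and 7 were below 0 in every profile. Klra5 and Klra6 had mixed signs, with medians of 0.30 and -0.11. Klra8 scored -0.47, -0.49, -0.69, -0.46, -0.32 and -0.32. Klra1 (Ly49a), the most distal of the array at 130363918 to 130386874, had a median of -1.08 (-1.19 in C to -0.92 in E), and 4.39% of all genes had a lower median. Klra2 (Ly49b) lies 0.81 Mb further on at 131198970 to 131247716 and stood higher than Klra1 in every profile, at -0.21, -0.37, -0.56, -0.29, -0.34 and -0.38. Its sign depended on the table, since its median was 0.47 on raw levels averaged over a 100-kb bin and rescaled.

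The Clec4 genes encode receptors for microbial glycolipids and sugars, among them Clec4e, Clec4d and Clec4n (Dectin-2). They lay 5.32 Mb before the Klrb1 block, across DNA that ranged from a median score of -1.20 at Vmn2r22 to 1.23 at Chd4. Clec4a1 scored 0.61, 0.55, 0.65, 0.24, 0.54 and 0.44, and Clec4e at the other end of the block 0.45, 0.43, 0.35, -0.11, 0.23 and 0.18. Profile D was the lowest at all 9 genes, and below 0 at Clec4b2, Clec4n, Clec4d and Clec4e. Clec4d scored 0.46, 0.44, 0.37, -0.09, 0.24 and 0.20. Beyond Clec4e, valued windows stopped for 252 kb after 123390188, and the score was 0.39, 0.39, 0.23, -0.21, 0.16 and 0.11 just before that gap and -1.34, -1.28, -1.30, -1.11, -0.96 and -1.12 just after it. Klrg1, an inhibitory receptor for cadherins, lay 0.64 Mb before Clec4a1 and scored -0.20, -0.06, -0.20, -0.26, 0.15 and -0.15, above 0 in E alone.

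Raw copy levels also separated the Klra array from the crest. They and the score describe the same sequenced samples, so these measures are not independent of each other. Mean levels over the 51 windows of the Klra array were 1.93, 1.92, 1.91, 1.91, 1.92 and 1.93 in profiles A to F, against 2.20, 2.17, 2.15, 2.13, 2.15 and 2.16 over the 68 windows of the Klrb1 and Clec2 block. The SD between windows was 0.13 to 0.16 in the Klra array and 0.15 to 0.16 in the other block. The Klra array was lower by 0.22 to 0.28 in each of the 6 profiles. Over the Clec4 block the level was 1.96 in D, against 2.00 to 2.06 in the other profiles (33 windows, SD between windows 0.12 to 0.14). A lowest raw level in D was not particular to the Clec4 block. D was also the lowest over the Klrb1 and Clec2 block (2.13), from Clec12a to Clec7a (2.17) and over the Klra array (1.91). The mean over all autosomal windows was 1.96 in D and in E, against 1.97 to 1.98 in the other profiles.

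**Figure D4:**
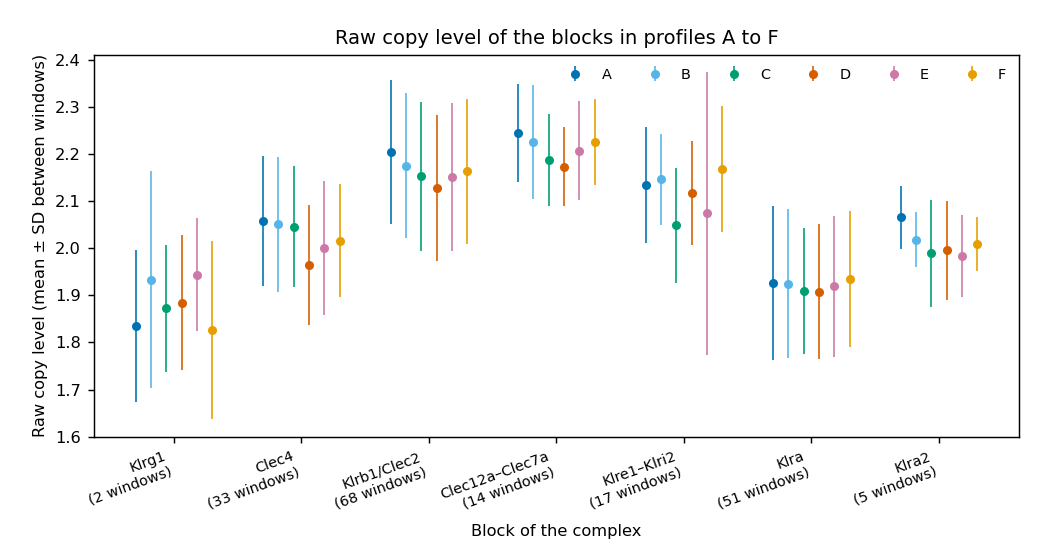
Mean raw copy level (vertical axis, which does not start at 0) of all windows across each block of the complex in profiles A to F; bars are the SD between the windows of a block, which are not replicates. Levels of the Klrb1/Clec2 and Clec12a to Clec7a blocks exceed those of the Klra block in every profile, and the long bar of profile E in the Klre1 to Klri2 block comes from a single window.

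One window stood apart in that block. The window of Klrc2 (129651439 to 129667795), whose gene encodes the activating receptor NKG2C, had raw levels of 1.86, 2.10, 1.95, 1.97, 1.01 and 2.10 in profiles A to F. Profile E thus reached 51.3% of the median over the remaining 5. Its neighbours in E were at 2.20 on the side of Klrc3 and 2.14 on the side of Klrc1. Of the 202561 autosomal windows valued in all profiles, 6 (0.00296%) had a profile at or under 60% of the median of the others, and this was the only member window of 57 among them. Windows without a value in some profile were not counted, and this window was singled out after its values were seen. The smoothed score of Klrc2 in E was 0.94, inside the range of the other profiles. Without that window the mean raw level of the block in E was 2.14, against 2.07 with it.

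**Figure D5:**
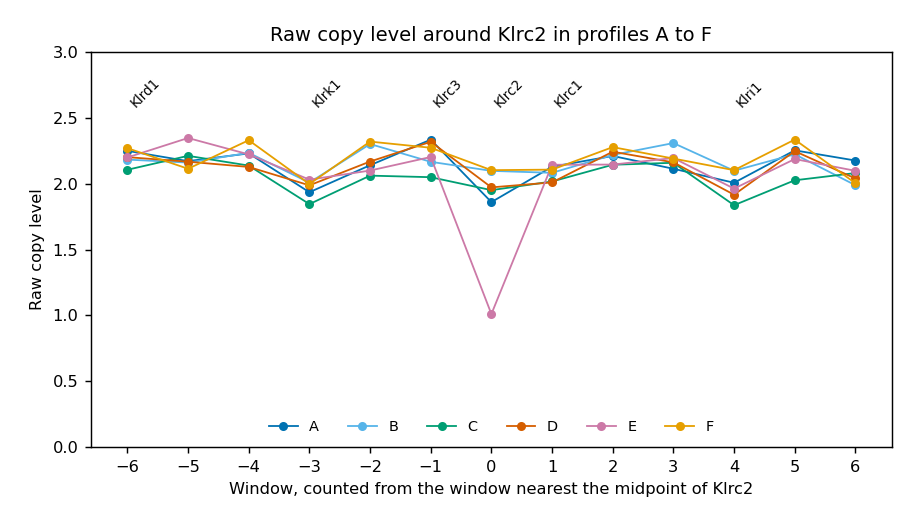
Raw copy level (vertical axis, from 0) of 13 successive windows, counted from the window of Klrc2 (horizontal axis), 1 line per profile, with the members nearest to a window named above. Profile E is at 1.01 in the Klrc2 window and between 1.96 and 2.35 in the others.

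Members outside the complex are scattered, though some adjoin lectin genes with other names, as Clec4g does Fcer2a and Cd209a, and Clec4f does Cd207. Of the 12, 11 were valued in all profiles, each with a score above 0 in every one. The earliest were Clec2l (1.55, 1.59, 1.62, 1.48, 1.46 and 1.42 in profiles A to F) and Klrg2 next to it on chromosome 6 (median 1.46, range 1.35 to 1.56). Clec18a on chromosome 8 had a median of 1.36 (1.31 to 1.48). Clec5a, a myeloid receptor that signals through Tyrobp, scored 1.44, 1.35, 1.28, 1.30, 1.13 and 1.10. Clec16a on chromosome 16, a regulator of autophagy rather than a surface lectin, scored 1.03, 1.18, 1.02, 1.32, 1.31 and 1.12.

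Lower scores outside the complex were found at Clec11a, a growth factor gene on chromosome 7, with 0.32, 0.28, 0.19, 0.30, 0.27 and 0.17, and at Clec3a on chromosome 8, with 0.53, 0.59, 0.60, 0.51, 0.56 and 0.20. Clec4g, a gene of liver sinusoidal cells on chromosome 8, had a median of 0.81 (0.68 to 0.85), and Clec4f, a gene of liver macrophages on chromosome 6, had a median of 0.97 (0.81 to 1.10). Clec14a, an endothelial gene on chromosome 12 (58264720 to 58269258), lacked a value in D and E, and its score was -1.31 in A, -1.30 in B, -0.83 in C and 0.51 in F. Its raw levels there were 1.91, 1.94, 2.01 and 2.20, beside medians over all windows of chromosome 12 of 1.97, 1.98, 2.02 and 2.20. The mean score of the whole chromosome was likewise highest in F (1.39) and next highest in C (0.31), and was -0.06 in A and -0.05 in B. The part of the chromosome level in its score was not tested.

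The median range of a member over the profiles was 0.35 units, against 0.27 over all genes. All genes here include those on chromosomes 3, 4, 14 and 17, where no member lay. The median range and the shares over all genes were not computed without these chromosomes. A range of at least 0.5 units over the 6 profiles was reached by 4 of 58 members (6.90%), beside 8.24% of all genes, and a range of at least 1 unit by 0 members, beside 3.16%. The 4 were Clec4b2 (0.51), Clec4n (0.53), Clec4d (0.55) and Clec4e (0.56), and without profile D there were 0. On raw levels averaged over 100-kb bins and rescaled, 20 members reached that range. The share of all genes that reach it on this measure was not computed. Members in the same bin share a value there, and the placed members lay in 34 distinct bins. By block the median range was 0.48 for the Clec4 genes, 0.32 for the Klrb1 and Clec2 genes, 0.19 for the genes from Clec12a to Clec7a, 0.36 for those from Klre1 to Klri2 and 0.36 for the 10 Klra genes, against 0.29 for other sites. On chromosome 6 the values of profile E ended at 139652394, distal to the complex, and all 47 members of the complex were valued in E.

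The smoothing gives neighbouring genes similar scores, so genes lying among the members add no independent values. Between Klrb1a and Klra1 lay 6 other protein-coding genes, and all 6 were above 0 in every profile. Cd69, an early activation antigen with a lectin-like fold, had a median of 1.49 (1.39 to 1.64), Olr1, a scavenger receptor for oxidised lipoprotein, 1.33 (1.19 to 1.43), and Klrh1 0.67 (0.36 to 0.76). In a list of 27 genes of the complex and its flanks, 19 were above 0 in every profile and 7 below. Over all genes 76.4% were above 0 in every profile and 15.3% below. Ntf3, a nerve growth factor relative, was the latest of the list at -0.47.

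Partner genes in the genome were set beside the members through 3 further lists. Of 26 valued signalling partners, 25 were above 0 in every profile and the median was 1.23, with 0.82 and 76.4% over all genes. The share of all genes below 0 in every profile was 15.3%. The adaptor genes Tyrobp (DAP12) and Hcst (DAP10), which share a window, stood at 1.23 (1.08 to 1.42). Bcl10, which links Card9 to NF-kappaB, was the latest at -0.25 (-0.47 to 0.03). Of 42 valued genes for lectin-like proteins with other names, 30 were above 0 and 7 below 0 in every profile (median 0.68), from Ncan, a proteoglycan of the brain, at 1.69 to Reg3b, an intestinal antimicrobial lectin, at -1.52. Those below 0 include the neighbouring genes Reg1, Reg2, Reg3a, Reg3b, Reg3d and Reg3g on chromosome 6, which are not independent of each other. Reg3b and Reg3d share a window. Cd69 and Olr1 are counted in this list as well as in that of the complex and its flanks. Of 12 valued ligand genes 9 were above 0 and 1 below (median 0.46). The earliest was H2-K1, an MHC class I gene, at 1.38 and the latest Cdh2, N-cadherin, at -1.06.

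The upstream sequences of most members were poor in CG beside those of other genes. For 49 of the 59 placed members RefSeq gave an entry, and CG was counted in the 250 bases before the start, a motif that reads the same on both strands. The Klra genes had a median of 1 CG (0 to 3), and the Klrb1 and Clec2 genes 3 (0 to 7), against 4 (0 to 21) at other sites and 10 over 16457 autosomal protein-coding genes. Both the earliest member of the complex, Clec2e, with 1 CG, and the latest, Klra1, with 2, were poor in CG. Clec16a had 15, a number reached by 37.9% of those genes, whereas 93.0% had at least 1 and 84.2% at least 2. Aligned over 250 bases, Clec2e and Clec2h matched at 82.2% of positions and Klra4 and Klra8 at 84.5%, beside medians of 48.8% over pairs of Klrb1 and Clec2 genes and 50.3% over pairs of Klra genes. The first pair differed by 0.65 units in median score and the second by 0.21.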

How the data were processed

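The authors deposited 2 tables over 237602 windows of mm10, without headers. The first held a DNA copy level that the authors scaled to an autosomal median near 2 (a signal, here the raw level), as deposited. The second held a timing score that the authors smoothed and scaled to a mean of 0 and an SD of 1 before they deposited it, as the values show. The build and Picard 2.23.9 are given per the submitters' processing notes, and the title of the series names TIGER. Aligner, filters, GC correction and the settings of the smoothing are not given in the sources used here, and the depth per window is unknown, so no counting interval was computed. No column of values was left unused (0 columns).

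Each gene of the RefSeq table of the same build took the window nearest its midpoint, within 50 kb. Members and gene lists were chosen with earlier results of these data known. Named genes were the earliest and latest of each block, the 5 earliest and 5 latest elsewhere, the 5 with the widest range, members lacking values and members with known roles. Clec2h, Klra4, Klra8, Klrc2 and the other members outside these rules were named after their values were seen. Among those others are Klra3, Klra5, Klra6, Klra10, Klrb1, Clec4a4, Clec4b1, Klri1, Clec10a and Clec12b. The earliest gene of 1 list is not reported here. Blocks follow gene family and order. The limma genotype fit that had been planned needs the genotype of each column and was not run. Assigning windows to genes and calling scores below 0 in every profile were tested on simulated data. Planted windows were chosen through the same assignment, so their recovery was fixed in advance. The other steps were not tested in this way. Python 3.11.15, pandas 2.3.3 and Biopython 1.88 were used. Promoter identity came from global alignment. Alternatives were gene position, distance limit, all windows across a gene, rescaled raw levels, 1 value per bin, limits of the complex, chromosomes and profiles left out.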

Additional observations from a re-analysis of the deposited data

Results flagged for a closer look

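Over the 6 profiles, the lowest or highest value of each placed member was compared with its nearest neighbour, as a share of the whole range, for the score and for the raw level. Of 118 such sets of values, 6 had a value that stood apart, and chance gives about 1 in 20. The profiles mix both genotypes in an unknown order. The raw level of Klrc2 in profile E was 1.01, far below the others. The score of Klri1 (0.58) and that of Klri2 (0.49) were lowest in profile C, and these neighbours share their smoothing. The score of Clec4g was lowest in D, at 0.68. The scores of Clec3a (0.20) and Clec10a (0.88) were lowest in F.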

How the results depend on the processing

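No paired analysis was possible because no column is numbered by replicate. The difference in score between the complex and other sites kept its sign (lower in the complex) under all settings run. It was -0.48 with 1 value per 100-kb bin (23 bins in the complex, 11 elsewhere), -0.032 with the complex limited to members joined to Klrb1c, -0.48 against the other sites on chromosome 6 alone, and -0.31 to -0.11 with a profile left out. The difference in raw level turned to 0.00454 with the limited complex and was -0.04 to -0.02 with a profile left out. With 1 value per bin, 5 bins were below 0 and 25 above 0 in every profile, and 1 ranged over at least 0.5, as fewer units are counted. A range of at least 0.5 was reached by 20 members on rescaled raw levels. Members in the same bin share a value there, and the share over all genes was not computed. On the score it was reached by 0 members with the limited complex, which leaves out the Clec4 genes. With a profile left out it was reached by 0 to 4 (0 without D). A range of at least 1 in score was reached by 0 members. On rescaled raw levels the bin shared by Klrk1, Klrc3, Klrc2 and Klrc1 ran from 0.32 in E to 1.36 in F. Leaving out a profile gave 8 to 9 members below 0 and 43 to 47 above 0. No member lay on chromosomes 3, 4, 14 and 17. Of 59 member scores, 58 stayed within the spread of the profiles at the lower coordinate and 23 on rescaled raw levels, where 3 turned sign: Clec4a4 (-0.13), Clec4b1 (-0.13) and Klra2 (0.47). The cause was not tested. The settings without Clec14a, with means, and against chromosome 6 alone were chosen after seeing the data.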

Other observations

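Raw levels of single windows scattered around a straight line on the score with an SD of 0.121 to 0.127. At 2 members, Clec2e and Klra4, the departure was at least 0.25 in the same direction in every profile. Departures of 1 sign in every profile that did not all reach 0.25 occurred at other members. Examples are Klrb1 (0.20 to 0.30) and Clec4b1 (-0.21 to -0.15). The window of Clec2e lay above the line by 0.30, 0.39, 0.52, 0.29, 0.25 and 0.33 in profiles A to F, and that of Klra4 below it, at -0.35, -0.31, -0.28, -0.28, -0.38 and -0.29. Departures of at least 0.25 upward in every profile were found in 0.0795% of 202423 autosomal windows, and of that size downward in 0.574%. Clec2e and Klra4 were singled out after their values were seen, and no cause was tested. Windows over 12000 bp made up 24.2% of the 33 windows of the Clec4 block, 23.5% of the 17 of the Klre1 to Klri2 block, which holds the Klrc2 window, 20% of the 5 of Klra2, 11.8% of the 68 of the Klrb1 and Clec2 block and 7.84% of the 51 of the Klra array. The Klrg1 block and the block from Clec12a to Clec7a had none, and the share over all autosomal windows was 7.74%.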
